A study of Mus musculus with 16 samples.

Results

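The insulin-like growth factor (IGF) genes described here are the ligands Igf1 and Igf2, the signalling receptor Igf1r, and the binding protein genes Igfbp2, Igfbp3, Igfbp4, Igfbp5, Igfbp6 and Igfbp7. They were chosen by name from the normalized count table of bulk RNA-seq libraries from mouse knee joints, and all 9 of the 9 named genes were among its 13733 genes. The study profiled cells released from knee joints of wild-type C57BL/6 mice (WT) and of Trem2 knockout mice (Trem2-/-), a constitutive mutant line (C57BL/6J-Trem2em2Adiuj/J) in which all cells carry the allele. Each genotype was taken uninjured (D0) or 7 days after rupture of the anterior cruciate ligament by a single tibial compression (D7), with 4 mice in each of the 4 groups. The mice were male and the age at injury was 10 weeks, whereas the age listed for each sample is 16 weeks. The labelled extraction describes homogenized whole joints and the methods describe joints dissociated into cells, and which of them applies to these libraries was not tested. The labelled protocol also names control and T1DM mice and a TruSeq RNA kit, where the methods give a stranded mRNA kit, so parts of it may not describe these libraries. The injured mice also received buprenorphine for pain relief. The methods point to the cell isolation used for single-cell libraries, which included a CD45 bead separation of immune cells, and whether these libraries came from cells before or after it is not stated.

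IGF1 and IGF2 are secreted peptides that act through IGF1R, a receptor tyrosine kinase that signals to the PI3K and AKT and to the MAP kinase pathways and promotes growth, survival and matrix synthesis. In joints IGF1 is known as an anabolic factor for cartilage. The binding proteins hold the ligands in the extracellular space, prolong their half-life and limit or deliver them to the receptor, and proteases cut them to set the ligands free. IGFBP7 binds the IGFs only weakly and is often called an IGFBP-related protein.

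The 16 libraries held between 11567073 and 32867818 reads on the listed genes, so 3 reads corresponded to at most 0.250 CPM (read counts per library size, scaled by the trimmed mean of M values) in any of them. Of the members, Igfbp2 rested on 5 to 116 reads in a library and each of the other 8 on at least 272. Trem2 itself ranged from 10.7 to 22.5 CPM in WT D7 and from 3.42 to 4.84 CPM in Trem2-/- D7, groups that did not overlap (log2 fold change -1.72, limma adjusted p = 0.0503), and it overlapped at D0, at 2.51 to 5.61 CPM in WT and 0.948 to 2.68 CPM in Trem2-/-. Each marker of fibroblasts, chondrocytes, macrophages, neutrophils and B cells looked for was above 0 in at least 1 library of every group. The same held for the adipocyte, skeletal muscle and erythroid markers in the table, so this cannot check the labelled joint tissue. In such bulk libraries fewer cells of a type and less RNA per cell cannot be told apart. The D0 libraries varied more than the D7 libraries, and among the WT D0 mice replicates 1 and 4 were high and replicate 2 low for most of the genes described below.

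For orientation, the 250 bases upstream of the RefSeq start site (build GRCm38.p6) are printed for the 4 members other than Igf1 that changed after injury in Trem2-/- mice, since they moved together or against each other in the results below. The RefSeq table had a window for each of the 9 members. The window of Igf1 lies within annotated exons of other Igf1 transcripts and is not shown. None of the 4 windows shown overlaps an annotated exon. Each is written 5′ to 3′ on the strand of its gene, and capitals mark matches on either strand to the letters searched.
Igfbp7, chr5:77408046-77408295, minus strand: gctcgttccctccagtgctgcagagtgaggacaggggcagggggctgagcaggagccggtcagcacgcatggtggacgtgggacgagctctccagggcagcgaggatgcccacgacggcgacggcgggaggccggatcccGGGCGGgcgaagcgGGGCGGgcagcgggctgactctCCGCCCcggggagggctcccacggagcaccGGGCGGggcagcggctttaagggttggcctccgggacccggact
Igfbp4, chr11:99040994-99041243, plus strand: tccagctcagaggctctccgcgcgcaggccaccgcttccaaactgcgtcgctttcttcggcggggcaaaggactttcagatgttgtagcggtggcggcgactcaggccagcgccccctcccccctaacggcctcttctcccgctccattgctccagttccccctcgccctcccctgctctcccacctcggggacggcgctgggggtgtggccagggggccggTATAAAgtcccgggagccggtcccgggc
Igfbp3, chr11:7213924-7214173, minus strand: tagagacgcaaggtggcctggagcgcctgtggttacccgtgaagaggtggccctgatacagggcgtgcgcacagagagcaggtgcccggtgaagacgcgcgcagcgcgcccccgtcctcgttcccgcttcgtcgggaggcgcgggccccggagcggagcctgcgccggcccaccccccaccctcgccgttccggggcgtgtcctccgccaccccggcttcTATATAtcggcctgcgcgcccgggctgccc
Igf1r, chr7:67952007-67952256, plus strand: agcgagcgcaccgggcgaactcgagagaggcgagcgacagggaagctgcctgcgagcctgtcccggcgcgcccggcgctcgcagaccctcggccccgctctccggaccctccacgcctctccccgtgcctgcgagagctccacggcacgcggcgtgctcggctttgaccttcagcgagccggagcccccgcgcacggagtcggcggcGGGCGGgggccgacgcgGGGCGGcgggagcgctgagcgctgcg
The letters searched were TATAAA (the TATA box), its variant TATATA (which can overlap it), GGGCGG (the GC box), CCAAT (the CCAAT box) and TGANTCA (the AP-1 element). The Igfbp7 window held 4 GC boxes and the Igf1r window 2, against at least 1 in 32.7% of the 32851 RefSeq promoter windows of that length. The Igfbp4 window held 1 TATAAA (12.4% of windows hold one) and the Igfbp3 window 1 TATATA (5.25%). None of the 4 contained CCAAT (33.8%) or the AP-1 letters (6.75%). The 4 windows were rich in G and C, at 74% for Igfbp7, 69.2% for Igfbp4, 73.2% for Igfbp3 and 77.6% for Igf1r, where the median window had 52.4%. A match is a description of the letters and not a bound site.

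The first question was how the genes changed between D0 and D7 within each genotype. Igf1 was the member with the greatest change in both genotypes, and it rose 3.99-fold in WT and 11.1-fold in Trem2-/- mice. Igfbp7 also rose in both. In Trem2-/- mice Igfbp4 and Igfbp3 rose and Igf1r fell as well. Igf2, Igfbp2, Igfbp5 and Igfbp6 passed the test in neither genotype. In WT, 2 of 9 members passed (adjusted p under 0.05 by limma with Benjamini-Hochberg adjustment over 13173 genes), both higher, where 28.5% of all genes tested passed and 15.9% were higher. In Trem2-/-, 5 of 9 passed, 4 higher and 1 lower, where 53.2% of all genes passed, 26.0% were higher and 27.2% lower. The count of 5 in 9 was thus close to that background. The median log2 fold change of the members was 0.41 in WT and 0.88 in Trem2-/-, against -0.04 and -0.04 over all genes. The members whose D0 and D7 mice did not overlap were the same 2 in WT and the same 5 in Trem2-/-, where 22.2% and 52.4% of all genes did not overlap.

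**Figure D1:**
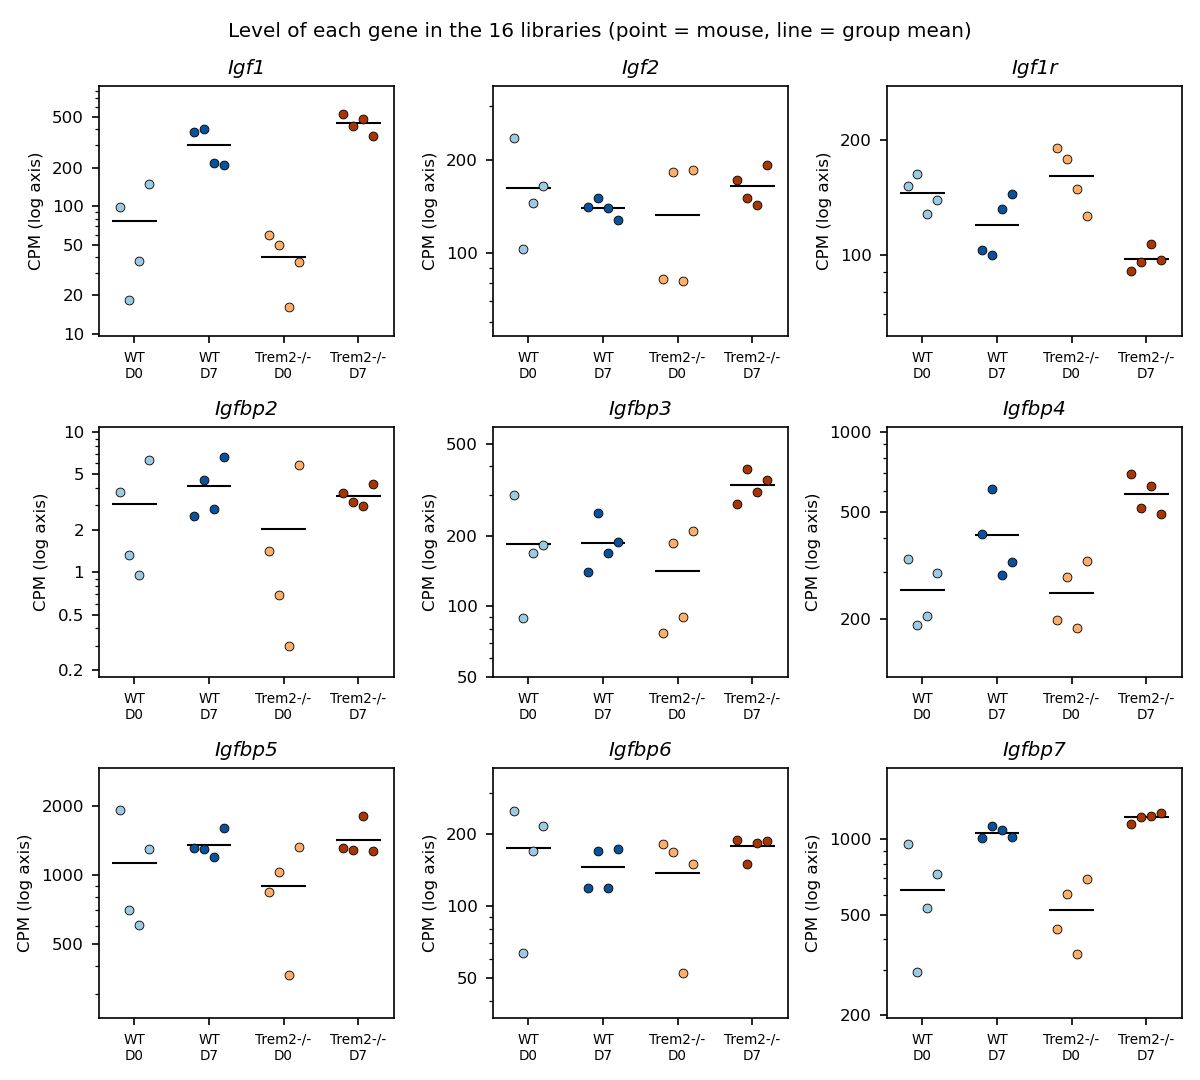
CPM on a log axis for each of the 9 genes in the 16 libraries, with 4 mice per group as points and the group mean as a line. The D7 points of Igf1 lie above all D0 points in both genotypes, and the D7 points of Igfbp7 lie in a narrow band above the scattered D0 points.

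Igf1 encodes the main ligand of the receptor (chr10:87858265-87937042, plus strand, GRCm38). In WT D0 mice its level was 99.3, 18.4, 37.2 and 149.8 CPM in replicates 1 to 4, and in WT D7 mice it was 384, 401, 219.7 and 209.9 CPM. Each injured WT mouse was above each uninjured one, and the uninjured mice spread more than the injured ones on the log2 scale, though less in CPM. The log2 fold change was 2.33 (SE 0.52, 95% interval 1.23 to 3.44, adjusted p = 0.00570 by limma). In Trem2-/- D0 mice Igf1 was at 59.2, 49.2, 16.2 and 36.5 CPM and in Trem2-/- D7 mice at 527, 427, 482 and 355 CPM. Here too the groups did not overlap, and the gap between the highest uninjured and the lowest injured mouse was wider than in WT. This gave a log2 fold change of 3.57 (SE 0.52, 95% interval 2.46 to 4.68, adjusted p = 7.38e-05 by limma). The difference between the genotypes' injury effects was 1.24 on the log2 scale with an interval from -0.33 to 2.80, and it did not pass the test.

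Igf2, the fetal ligand and an imprinted gene (chr7:142650766-142666816, minus strand), showed no such change. Its level was 235, 103, 145 and 165 CPM in WT D0 and 141, 151, 139.8 and 128 CPM in WT D7. It was 82.9, 183, 81.3 and 186 CPM in Trem2-/- D0 and 172, 150.4, 143 and 193 CPM in Trem2-/- D7. The D7 mice of both genotypes sat inside the range of the D0 mice or just above it. On the log2 scale the fold change after injury was -0.15 in WT (95% interval -0.73 to 0.43) and 0.41 in Trem2-/- (-0.17 to 0.99), so changes of up to those bounds in either direction were not excluded by these mice. In GENCODE M21, 62.8% of the exonic length of Igf2 is shared with the same-strand gene model Gm49394, which was not in the table, and the level of Igf2 is uncertain to the extent that counting split the reads between them.

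Igf1r encodes the receptor through which both ligands signal (chr7:67952827-68233668, plus strand). It stood at 151, 162, 128 and 139 CPM in WT D0 and at 103, 99.7, 132 and 144 CPM in WT D7. These groups overlapped, because WT D7 replicates 3 and 4 were as high as the uninjured mice. In Trem2-/- D0 the receptor was at 189.9, 178, 149 and 127 CPM and in Trem2-/- D7 at 90.8, 95.6, 107 and 96.7 CPM. Each injured Trem2-/- mouse was below each uninjured one. Its log2 fold change was -0.70 in Trem2-/- (SE 0.14, adjusted p = 0.000862 by limma) and -0.29 in WT (SE 0.14, adjusted p = 0.137). The ligand Igf1 and its receptor thus moved in opposite directions in Trem2-/- mice. The difference between the 2 injury effects was -0.41 (95% interval -0.84 to 0.01) and did not pass the test.

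Igfbp7 (chr5:77349240-77408041, minus strand) encodes a secreted protein of vessel walls and stroma. It was at 958, 297, 532 and 730.3 CPM in WT D0 and at 1010.0, 1133, 1089 and 1019 CPM in WT D7. The injured WT mice were nearly equal and all above the uninjured ones, which spread 3.23-fold. In Trem2-/- it was at 439.8, 607, 349 and 695 CPM at D0 and at 1149, 1232, 1236 and 1279.5 CPM at D7, again without overlap. The log2 fold change was 0.88 in WT (SE 0.28, adjusted p = 0.0318 by limma) and 1.28 in Trem2-/- (SE 0.28, adjusted p = 0.00164). The WT call was close to the threshold. Its adjusted p was between 0.0525 and 0.0931 when WT D0 replicate 2 or 3, or any 1 of the WT D7 replicates, was left out, and the fold change fell to 0.56 without WT D0 replicate 2. Of the exonic length of Igfbp7, 7.03% lies opposite Polr2b, whose reads are kept apart only if counting used strand, which is not given in the sources used here.

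Igfbp4 (chr11:99041244-99054392, plus strand) encodes the binding protein that the protease PAPP-A cuts to release IGFs. Its level was 334, 189, 205 and 296 CPM in WT D0 and 416, 611, 291 and 326 CPM in WT D7. Those groups overlapped, with WT D7 replicate 2 well above the others. In Trem2-/- it was 197, 287, 184 and 328 CPM at D0 and 697, 519, 628 and 492 CPM at D7. Each injured Trem2-/- mouse was above each uninjured one. The log2 fold change was 1.253 in Trem2-/- (SE 0.25, adjusted p = 0.000808 by limma) and 0.66 in WT (SE 0.25, adjusted p = 0.0600). In WT it passed the test when either D0 replicate 1 or D7 replicate 3 was left out.

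Igfbp3 (chr11:7206086-7213923, minus strand) encodes the main carrier of IGFs in serum. It was at 302, 89.1, 169.5 and 184 CPM in WT D0 and at 141, 253, 169 and 189 CPM in WT D7, groups with nearly the same mean. In Trem2-/- it was at 77.0, 187, 90.1 and 212 CPM at D0 and at 276, 388, 311 and 350.1 CPM at D7. The injured Trem2-/- mice were above all uninjured Trem2-/- mice and above all injured WT mice. After injury the log2 fold change was 1.34 in Trem2-/- (SE 0.35, adjusted p = 0.00485 by limma) and 0.11 in WT (95% interval -0.64 to 0.85, adjusted p = 0.838).

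The remaining binding proteins had wide spreads at D0. Igfbp5 (chr1:72857932-72874884, minus strand), a matrix-bound binding protein, was the member with the highest CPM. It was at 1938, 703, 602 and 1297 CPM in WT D0, 1319, 1307, 1205 and 1615 CPM in WT D7, 848, 1033, 366 and 1328 CPM in Trem2-/- D0 and 1319, 1288, 1820.5 and 1278 CPM in Trem2-/- D7. In WT the uninjured mice lay on both sides of the injured ones, and in Trem2-/- only replicate 4 of the uninjured mice reached the injured range. Its log2 fold change was 0.41 in WT (95% interval -0.39 to 1.22) and 0.80 in Trem2-/- (-0.00 to 1.61). Igfbp6 (chr15:102144362-102149511, plus strand), which binds IGF2 in preference to IGF1, was at 251, 63.2, 170.3 and 218 CPM in WT D0, 119.6, 171, 119.6 and 174 CPM in WT D7, 182, 169, 52.1 and 151 CPM in Trem2-/- D0 and 189, 151, 184 and 189 CPM in Trem2-/- D7. In each D0 group 1 mouse was low, WT replicate 2 and Trem2-/- replicate 3. WT D0 replicates 1 and 4 lay above all WT D7 mice, and replicate 3 lay inside their range. Trem2-/- D0 replicates 1 and 2 lay inside the Trem2-/- D7 range, and replicate 4 lay at its lower edge. The log2 fold change of Igfbp6 was -0.12 (-0.97 to 0.74) in WT and 0.50 (-0.35 to 1.36) in Trem2-/-. Igfbp2 (chr1:72824503-72852474, plus strand) was the lowest member, from 0.957 to 6.32 CPM in WT D0, 2.51 to 6.65 CPM in WT D7, 0.298 to 5.79 CPM in Trem2-/- D0 and 2.97 to 4.25 CPM in Trem2-/- D7. Its log2 fold change of 0.46 in WT had an interval of -0.54 to 1.46 and that of 0.88 in Trem2-/- one of -0.13 to 1.88.

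**Figure D2:**
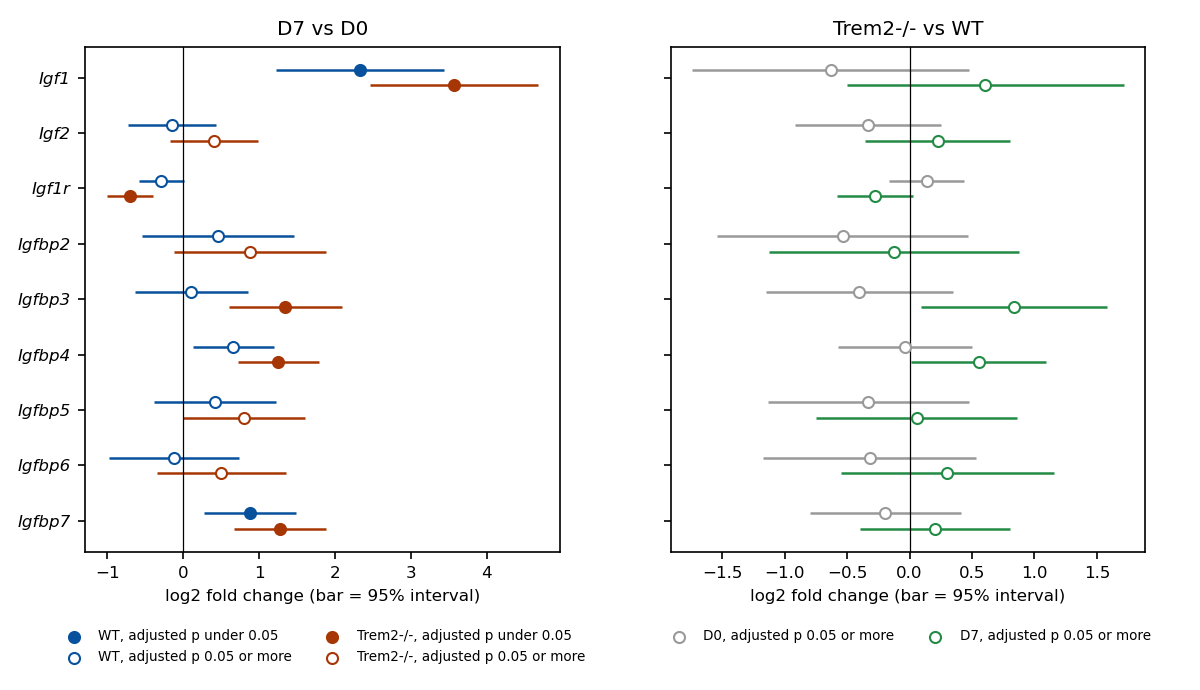
Log2 fold changes of the 9 genes with 95% intervals (limma on log2(CPM + 1)), for D7 against D0 in each genotype on the left and for Trem2-/- against WT at each day on the right. Filled points have an adjusted p under 0.05: these are Igf1 and Igfbp7 in WT and Igf1, Igf1r, Igfbp3, Igfbp4 and Igfbp7 in Trem2-/-, and none between genotypes.

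The spread between mice set what could be seen. On the log2 scale the SD of Igf1 was 1.34 in WT D0 and 0.80 in Trem2-/- D0, where the median gene had an SD of 0.27 and 0.24. At D7 it was 0.50 and 0.25, against 0.21 and 0.13 for the median gene. Igfbp7 went from 0.73 and 0.45 at D0 to 0.08 and 0.07 at D7. Igfbp3, Igfbp5 and Igfbp6 also had an SD between 0.72 and 0.89 in both D0 groups. Igfbp2, on few reads, had one of 0.89 in WT D0 and of 1.05 in Trem2-/- D0, the widest of the members in that group. Igf1r varied least in these groups, at 0.15 in WT D0 and 0.26 in Trem2-/- D0. WT D0 replicate 2 was the lowest of its group for Igf1, Igf2, Igfbp3, Igfbp4, Igfbp6 and Igfbp7, and Trem2-/- D0 replicate 3 was the lowest of its group for these genes other than Igfbp3 and also for Igfbp2 and Igfbp5.

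The second question was whether the genotypes differed. At D7, Igfbp3 and Igfbp4 were higher in Trem2-/- than in WT by the rule taken for the genotype comparisons (unadjusted p under 0.05 and a difference over 0.322 on the log2 scale). These were 2 of 9 members, where 5.72% of all genes passed that rule and 1.18% passed it as higher. No member, and no gene among the 13173 tested, had an adjusted p under 0.05 by limma, while 958 genes had an unadjusted p under 0.05. Igfbp3 had a log2 difference of 0.83 (SE 0.35, 95% interval 0.09 to 1.58, limma adjusted p = 0.626), and it was higher in each of the 4 Trem2-/- D7 mice than in each WT D7 mouse. Igfbp4 had one of 0.55 (SE 0.25, 95% interval 0.01 to 1.09, limma adjusted p = 0.672), with WT D7 replicate 2 inside the Trem2-/- range. Igfbp3 no longer passed the rule without WT D7 replicate 1 or 3 or Trem2-/- D7 replicate 2 or 4, and Igfbp4 no longer passed it without WT D7 replicate 1, 3 or 4 or Trem2-/- D7 replicate 1 or 3. The count was thus 0 without WT D7 replicate 3, and 1 without any other of these mice, namely Igf1r (lower in Trem2-/-) without WT D7 replicate 1. It was 3 without WT D7 replicate 2, where Igf1r passed as lower besides Igfbp3 and Igfbp4.

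Igfbp7 also did not overlap between genotypes at D7, though its log2 difference was only 0.20 (95% interval -0.40 to 0.81). With Igfbp3 this made 2 of 9 members without overlap, both higher, where 8.33% of all genes did not overlap and 3.55% were higher. Igf1 at D7 was higher in Trem2-/- by 0.61 (-0.50 to 1.71), and WT replicates 1 and 2 were above the lowest Trem2-/- mouse. Igf1r was lower by -0.28 in log2 difference (-0.58 to 0.02). Igf2, Igfbp2, Igfbp5 and Igfbp6 differed by between -0.12 and 0.30. None of these passed, though Igf1 did as higher when the D7 groups were fitted alone.

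At D0 no member passed that rule, which 2.15% of all genes passed. With limma 0 of 13173 genes had an adjusted p under 0.05 at D0 and 385 an unadjusted p under 0.05. In the log2 differences, 8 of the 9 members were lower in Trem2-/- and only Igf1r was higher, with a median of -0.33 against 0.00 over all genes and 0 of 9 members without overlap, where 0.979% of all genes had none. The lowest was Igf1, at -0.63 (-1.74 to 0.48). WT D0 replicate 2 decided this count: without it 4 members passed the rule as lower in Trem2-/-, namely Igf1, Igfbp3, Igfbp6 and Igfbp7. Without Trem2-/- D0 replicate 4 it was 1, Igfbp2, also lower.

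The difference between the injury effects of the genotypes was larger than 0 for 8 of the 9 members, and their median was 0.56 log2 units against 0.01 over all genes. By the same rule only Igfbp3 passed, 1 of 9 where 7.79% of all genes passed, with a difference of 1.24 (SE 0.50, 95% interval 0.18 to 2.29, limma adjusted p = 0.579). Its D0 values were lower and its D7 values higher in Trem2-/-. It no longer passed without WT D0 replicate 1, WT D7 replicate 1 (where Igf1r passed instead), Trem2-/- D0 replicate 1 or Trem2-/- D0 replicate 3. The count of members was 5 without WT D0 replicate 2, with Igf1, Igf1r, Igfbp6 and Igfbp7 besides Igfbp3. It was 3 without WT D7 replicate 2 (Igfbp3, Igfbp4 and Igf1r) and 2 without Trem2-/- D0 replicate 4 or Trem2-/- D7 replicate 3 (Igfbp3 and Igf1r). The genotype comparisons and the injury comparisons share their groups, so these differences are not separate evidence from the values above.

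Levels between genes were compared as CPM per kilobase of exon (mean ± SD over 4 mice). Igfbp7 was the highest member in every group, at 521 ± 233 in WT D0, 879 ± 48.6 in WT D7, 432 ± 129.7 in Trem2-/- D0 and 1012 ± 45.3 in Trem2-/- D7. Igfbp5 came next, from 149 ± 67.2 in Trem2-/- D0 to 237 ± 43.9 in Trem2-/- D7, and then Igfbp6, from 124 ± 53.0 to 160.1 ± 16.5 in the same groups. Igfbp5 and Igfbp6 did not differ beyond their ranges at D0 in either genotype and did at D7. Igfbp3 and Igfbp4 followed, and their ranges overlapped in all 4 groups. At the lower end Igf1 and Igf2 changed places between the days in Trem2-/- mice. In WT D7 Igf1 was above Igf2 in only 2 of 4 mice. At D0 Igf2 was at 28.3 ± 9.60 in WT and 23.3 ± 10.3 in Trem2-/-, above Igf1r at 8.63 ± 0.892 and 9.57 ± 1.70 and above Igf1 at 7.69 ± 6.06 and 4.07 ± 1.87. At D7 Igf1 was at 30.7 ± 10.4 in WT, where it overlapped with Igf2 at 24.5 ± 1.61, and at 45.2 ± 7.47 in Trem2-/-, where it was above Igf2 at 28.8 ± 3.95 in all 4 mice without overlap. Igf1r was then at 7.13 ± 1.31 and 5.81 ± 0.401. Igfbp2 was the lowest in each group, at no more than 2.24 ± 1.03.

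Igf1 made up 19.1 ± 11.1% of the ligand RNA (Igf1 plus Igf2 per kilobase) in WT D0 and 54.5 ± 7.39% in WT D7. In Trem2-/- this share was 15.8 ± 9.07% at D0 and 60.9 ± 6.45% at D7. The highest D0 share in WT, 34.4%, was below the lowest D7 share, 47.6%, and in Trem2-/- the corresponding shares were 29.2% and 51.5%. The shares and the order of these ligands carry the uncertainty in the level of Igf2 given above for Gm49394, and they rest on the exon lengths used. Set against the 6 binding proteins summed per kilobase, there was 0.708 ± 0.425 of Igf1 RNA per 100 of binding protein RNA in WT D0 and 2.20 ± 0.724 in WT D7. In Trem2-/- it was 0.506 ± 0.219 at D0 and 2.75 ± 0.492 at D7. This ratio of Igf1 did not overlap between the days in either genotype. Igf1 plus Igf2 per 100 of binding protein RNA did overlap in WT, at 3.37 to 4.06 in D0 and 3.10 to 4.88 in D7, and was at 2.77 to 3.88 and 4.18 to 5.25 in Trem2-/-, where it did not. RNA levels do not give the amounts of the proteins. Igfbp7, whose protein binds the IGFs only weakly, was the largest part of the summed binding protein RNA (shares below). These ratios are therefore not ratios of ligand to binding capacity.

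The mix of binding proteins also differed between the days. The summed level was 987 ± 442 CPM per kilobase in WT D0, 1392 ± 102 in WT D7, 808 ± 267 in Trem2-/- D0 and 1650.0 ± 64.6 in Trem2-/- D7. Igfbp7 made up 52.6 ± 2.23% of it in WT D0 and 63.2 ± 3.45% in WT D7, and 54.3 ± 5.31% and 61.4 ± 2.32% in Trem2-/-. Igfbp6 made up 15.7 ± 3.29% in WT D0 and 9.38 ± 1.48% in WT D7, and 15.2 ± 5.23% and 9.71 ± 0.994% in Trem2-/-. In WT the shares of Igfbp7 and of Igfbp6 did not overlap between D0 and D7. In Trem2-/- they overlapped, at 49.3 to 61.8% against 59.0 to 63.5% for Igfbp7 and at 10.0 to 22.1% against 8.41 to 10.7% for Igfbp6. Igfbp3 made up 4.27 ± 0.762% in WT D7 and 6.42 ± 0.989% in Trem2-/- D7, and those shares did not overlap. These shares are descriptions and were not tested.

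**Figure D3:**
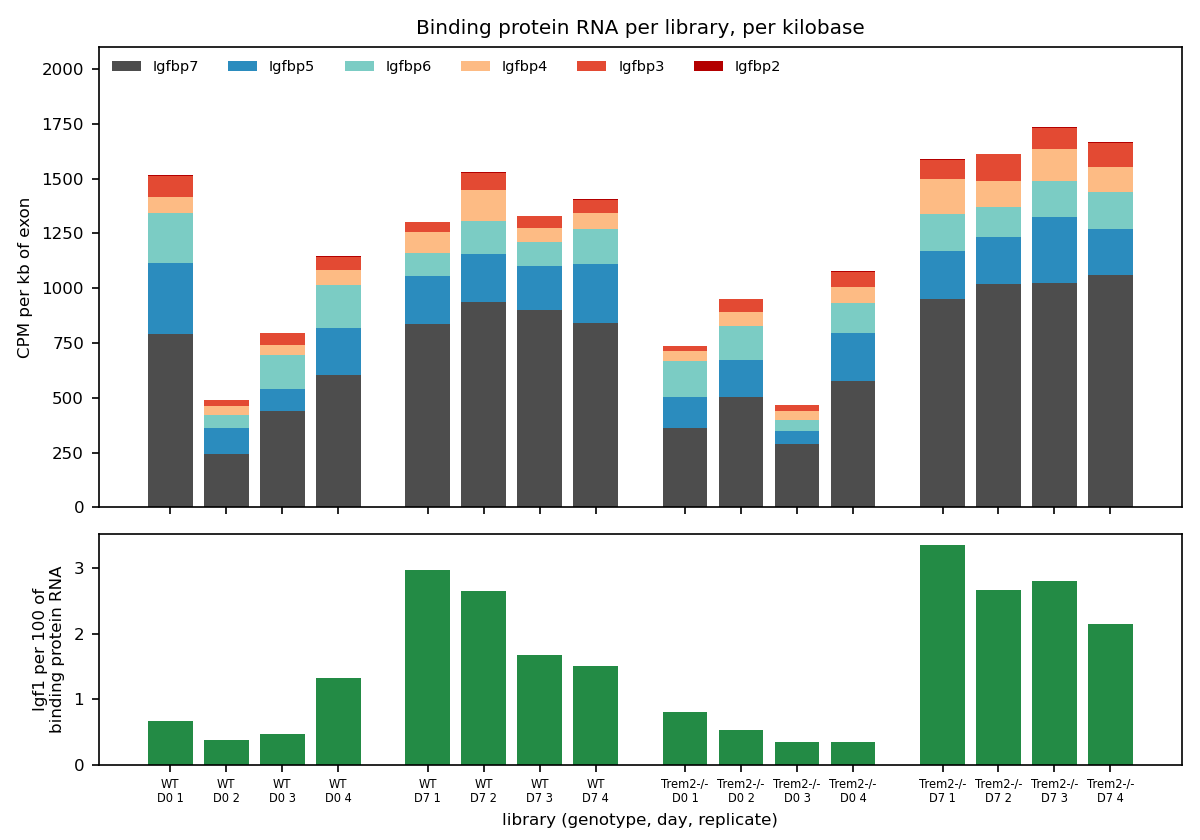
Upper panel: CPM per kilobase of exon of the 6 binding protein genes, stacked for each of the 16 libraries. Lower panel: Igf1 per 100 of the summed binding protein level in the same libraries, which lies between 0.343 and 1.32 at D0 and between 1.51 and 3.35 at D7.

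Markers of several cell types moved with the injury. The summed CPM of 8 fibroblast markers ran from 6219.8 to 49832 in WT D0 and from 74594 to 114830.0 in WT D7, and from 5232 to 11282 in Trem2-/- D0 and from 98625 to 139360.0 in Trem2-/- D7, with 7 of 8 markers higher at D7 in each genotype (adjusted p under 0.05 by limma). All 6 chondrocyte markers were higher at D7 in both. The 8 macrophage markers summed to 214 to 389.9 in WT D0, 518 to 721 in WT D7, 297 to 334 in Trem2-/- D0 and 406 to 481 in Trem2-/- D7, and 7 of 8 were higher in WT and 5 higher and 1 lower in Trem2-/-. Of the 6 pan-leukocyte markers, 5 were lower at D7 in WT and 6 in Trem2-/-. Most of the fibroblast sum came from Col1a1, Col1a2 and Col3a1, so it mainly follows these collagen genes. Their means were 7543, 5607 and 5262 CPM of 21983 in WT D0, and 2313, 2003 and 1960 CPM of 8573 in Trem2-/- D0. Within the D0 groups the order of the mice by Igf1 was that by the fibroblast sum, with replicates 4, 1, 3 and 2 from high to low in WT and 1, 2, 4 and 3 in Trem2-/-. Within the D7 groups the orders differed. In WT D7 the order was 4, 2, 1 and 3 by the fibroblast sum and 2, 1, 3 and 4 by Igf1. In Trem2-/- D7 it was 3, 1, 2 and 4 against 1, 3, 2 and 4. By the sum of the 8 macrophage markers the order was that of Igf1 in Trem2-/- D0 and differed in the other groups. A further sum took 7 markers of the study's Lyve1hi Folr2hi and Trem2hi Fcrls+ macrophages. Most of that sum was Apoe in every group, for example a mean of 514 of 596 CPM in WT D7 and 431 of 486 in Trem2-/- D7. The order of the mice by this sum, which mainly follows Apoe, was that of Igf1 in WT D7 and differed in the other groups. At D7 the sum of the 8 macrophage markers was lower in Trem2-/- than in WT without overlap. By the rule used between genotypes 3 of these 8 were lower (median log2 difference -0.40), as were 5 of 6 pan-leukocyte markers. The sum of the 7 Lyve1hi Folr2hi and Trem2hi Fcrls+ markers overlapped at D7, at 373 to 683 in WT and 363 to 574 in Trem2-/-. Of these 7, 6 were lower in log2 difference at D7 (median -0.40), and 1 was lower by that rule, Trem2 itself. Igf1 also overlapped at D7 and had the higher mean in Trem2-/-. The fibroblast markers had a median log2 difference of 0.31 there with none passing, and 2 of 3 tendon markers were higher by that rule. At D0 all 8 fibroblast markers were lower in Trem2-/- in log2 difference (median -0.74, 2 by that rule), as were all 6 chondrocyte markers (median -1.77, 3 by the rule), the 4 osteoblast markers tested (2 by the rule) and the 3 tendon markers (1 by the rule), while the 6 pan-leukocyte markers had a median of 0.27 with none passing. For the difference between injury effects, the 8 fibroblast markers were all above 0 with a median of 1.04 (1 passing), the 6 chondrocyte markers likewise at 0.03 to 2.15 (none passing), and the 3 tendon markers had one of 1.39 (3 passing as higher). The 6 pan-leukocyte markers had a median of -0.96 there, with 5 passing as lower. The part of these markers in the levels of the IGF genes was not tested.

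**Figure D4:**
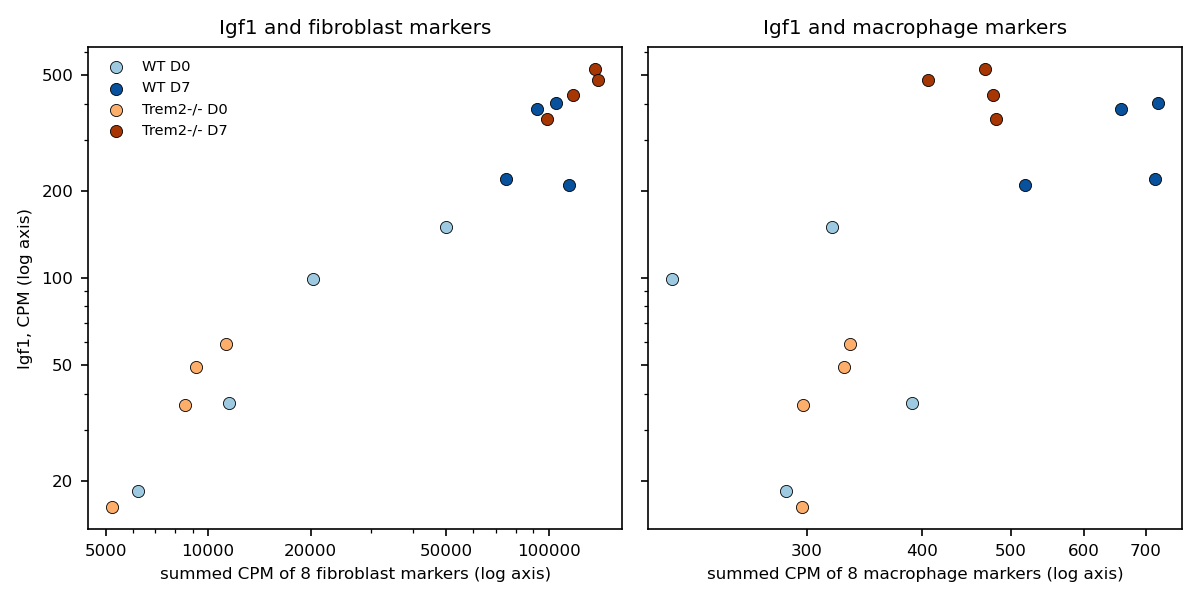
Igf1 in CPM against the summed CPM of 8 fibroblast markers (left) and of 8 macrophage markers (right), all on log axes, for the 16 libraries coloured by group. Most of the fibroblast sum comes from Col1a1, Col1a2 and Col3a1. On the left the D7 libraries lie above the D0 libraries on both axes, and on the right the Trem2-/- D7 libraries, with macrophage sums of 406 to 481, have Igf1 levels of 355 to 527.

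Other genes of the pathway were taken from lists of extracellular regulators, receptors, adaptors and kinases, the growth hormone axis, and Igf2-related genes. Of 41 genes on these lists, 33 were in the table. After injury 9 were higher and 3 lower in WT (adjusted p under 0.05 by limma), and 13 were higher and 5 lower in Trem2-/-, with 12 passing in both genotypes, each in the same direction. The backgrounds were those given above, 28.5% in WT and 53.2% in Trem2-/-, and the medians of the lists were 0.14 and 0.18 in log2 fold change. Among the extracellular regulators, Pappa, which encodes the protease PAPP-A that cuts IGFBP4, was at 3.76, 2.15, 1.44 and 16.2 CPM in WT D0 and 13.3, 27.6, 15.4 and 16.9 CPM in WT D7. It was at 2.29, 2.65, 2.50 and 2.78 CPM in Trem2-/- D0 and 16.9, 16.2, 13.6 and 17.3 CPM in Trem2-/- D7. In Trem2-/- these groups lay far apart, and in WT replicate 4 at D0 was already in the injured range. The log2 fold changes were 1.89 (SE 0.43) and 2.25 (SE 0.43).

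Htra3 and Htra1, secreted serine proteases of which HTRA1 is known to cut IGF binding proteins, rose in both genotypes without overlap. Htra3 had log2 fold changes of 1.95 in WT and 2.44 in Trem2-/-, and Htra1 of 1.38 and 2.09. Grb10 and Grb14, adaptors that dampen signalling from the insulin and IGF1 receptors, rose likewise. Grb10 changed by 1.79 and 2.30, from 38.9 to 149.8 to 217 to 345 CPM in WT, and Grb14 by 1.72 and 1.73. Pik3cb, a catalytic subunit of PI3K, fell by 0.59 in WT and 0.88 in Trem2-/-. Stat5b, a transcription factor of growth hormone signalling, fell by 0.46 and 0.69. Grb2, the adaptor to RAS, fell by 0.43 and 0.67. All of these had an adjusted p of at most 0.0321 in limma, and none differed between genotypes at D7 by the rule used between genotypes.

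Among the receptors on the lists, Igf2r, which clears IGF2 and has no kinase, rose by 1.29 in WT and 1.34 in Trem2-/- on the log2 scale, from 122 to 209 to 336 to 428 CPM in WT and from 120.2 to 162 to 322 to 404 CPM in Trem2-/- (adjusted p = 0.000502 and 2.96e-05 by limma). Insr, the insulin receptor, had log2 fold changes of 0.09 (95% interval -0.21 to 0.39) and 0.00 (-0.30 to 0.30). Stc1, which encodes a stanniocalcin that can inhibit PAPP-A, was the only listed gene higher in Trem2-/- than in WT at D7 by the rule used between genotypes. It was at 30.0, 39.4, 51.6 and 44.1 CPM in WT D7 and at 62.9, 82.9, 62.8 and 62.4 CPM in Trem2-/- D7, with a log2 difference of 0.72 (SE 0.28, limma adjusted p = 0.615). Each Trem2-/- mouse was above each WT mouse. Ghr, the growth hormone receptor, had log2 fold changes after injury of 0.54 in WT (adjusted p = 0.178) and 1.38 in Trem2-/- (adjusted p = 0.00144, limma). Igf2r, Insr and Ghr were named after their values were seen.

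**Figure D5:**
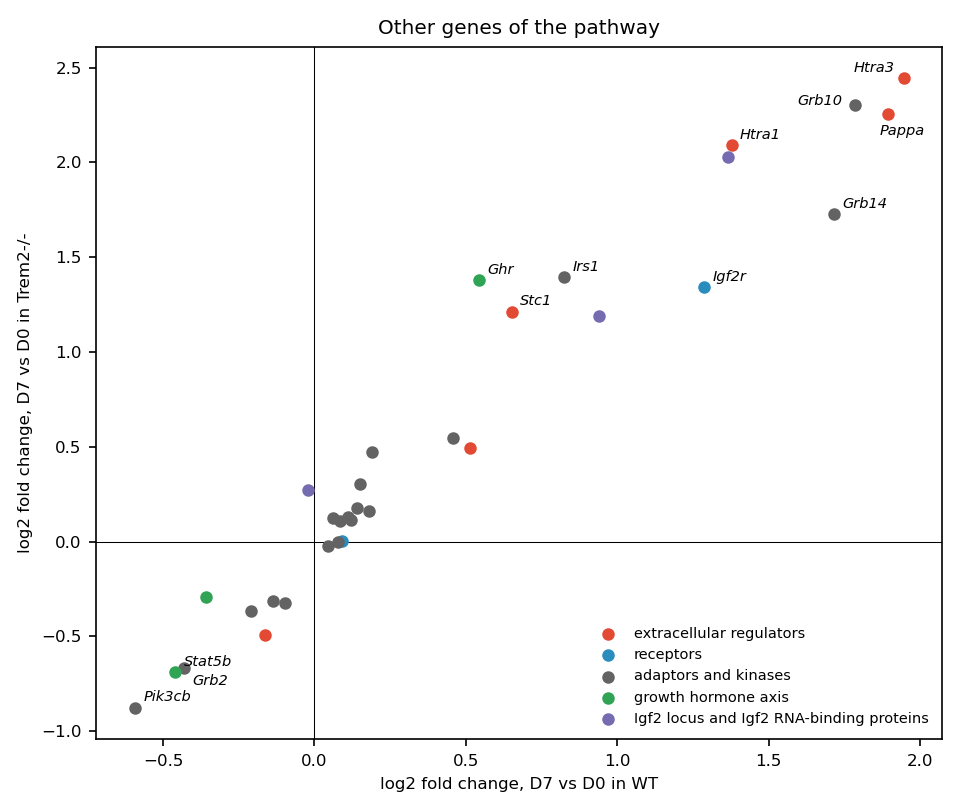
Log2 fold change D7 against D0 in WT (x axis) and in Trem2-/- (y axis) for the 33 other pathway genes in the table, coloured by list. The WT and Trem2-/- comparisons use different mice, and Htra3, Pappa and Grb10 lie at the upper right with Pik3cb at the lower left.

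The genes whose log2 pattern over the 16 libraries was closest to that of each member were listed by Pearson r among 10551 other genes that averaged 5 CPM or more (10552 for Igfbp2), as a description, since the libraries share 4 groups and 1 scaling. For Igf1 they were Fstl1 (r = 0.993), Antxr1 (0.992) and Bmp1 (0.991). For Igfbp7 they were Smad5 (0.989), Ppp2r3a (0.986) and Pdlim4 (0.985). For Igf1r they were Rlf (0.967), Dmxl2 (0.953) and Zfyve26 (0.952), for Igfbp4 Trip6 (0.971), Mex3d (0.969) and Cdk16 (0.968), and for Igfbp3 Nek7 (0.938), Fcgrt (0.924) and S100a16 (0.918). The members that passed neither injury test had a closest r of 0.916, 0.937, 0.915 and 0.903, with Jam3 for Igf2, Pi15 for Igfbp5, Uap1 for Igfbp6 and Tef for Igfbp2.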

How the data were processed

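Bulk RNA-seq of knee joint cells from 16 mice was analysed in 4 groups of 4, taken from the sample labels. The authors converted reads with bcl2fastq, aligned them with STAR to mm10 (GRCm38), used featureCounts for gene counts and edgeR's TMM method for scaling. Versions, annotation, strand setting and low-count filter are not given in the sources used here. The deposited values are normalized CPM, a signal per gene, in which 100% of values were whole multiples of 1 read (tolerance 0.01 read). The table held 13734 rows with 1 gene repeated, and no column was left out. Genes that reached 1 CPM in 4 or more libraries (13173) were kept, and log2(CPM + 1) was fitted with limma 3.58.1 (R 4.3.3, trend on) over the 4 groups as 1 factor, with Benjamini-Hochberg adjustment over all genes. Fold changes are on that scale, which understates changes of low genes, and ratios are of group mean CPM. Injury calls used an adjusted p under 0.05. Genotype calls and the difference of injury effects used the study's rule of an unadjusted p under 0.05 with a minimum fold change (0.322 on the log2 scale). Exon lengths are unions over GENCODE M21 and promoters are from RefSeq (GRCm38.p6). Alternatives were edgeR 4.0.16 and voom on the recovered reads, other pseudocounts, filters and scalings, a replicate block and each library left out. Same-numbered samples correlated between -0.51 and 0.41 in their deviations from the group means, and between 0.046 and 0.406 for WT D0 with WT D7. These values do not settle whether the numbers pair the mice, and the main fit did not pair them. On data simulated with the same dispersion for every gene, limma recovered 77% of 2-fold and 100% of 4-fold changes (D7 vs D0 in WT, 13081 genes). This does not give the recovery for members with a wide D0 spread. Igf1, for example, had a log2 SD of 1.34 in WT D0, against 0.27 for the median gene. No 2 libraries of a group agreed within counting noise. The p-values weigh a group difference against the spread between these samples, which limma moderates over all genes. The members, pathway lists and marker lists were chosen with earlier results of these data known. Named pathway genes were the up to 5 per direction with the largest mean change among those called in both injury comparisons, and any called between genotypes.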

Additional observations from a re-analysis of the deposited data

Results flagged for a closer look

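Igfbp5 in Trem2-/- D7 replicate 3 stood apart from the other 3 mice of its group, at 1821 CPM against 1319 for the nearest, a gap of 0.923 of the group's range and above Dixon's limit for 4 samples. Igfbp6 in Trem2-/- D7 replicate 2 was low, at 151 CPM against 184 for the nearest, a gap of 0.852 of the range. With 36 groups of values examined, chance gives about 1.8 such cases (1 in 20). The injury effect on Igfbp3 was larger in Trem2-/- than in WT by 1.24 on the log2 scale (difference of the injury effects, limma adjusted p = 0.579), and it moved with single mice as given above.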

How the results depend on the processing

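In Trem2-/- mice the count of members called after injury was 5 or 6 under 12 alternatives and 5 to 7 with 1 library left out. In WT it was 1 instead of 2 with edgeR on the recovered reads and with a fit of the WT groups alone, since Igfbp7 was lost (adjusted p = 0.0557 in edgeR and 0.0927 in limma), and 1 to 3 with 1 library left out. For Trem2-/- against WT at D7 it was 1 instead of 2 with edgeR, with voom and with the replicate block (Igfbp3 in each), 3 with a fit of the D7 groups alone (Igf1 as higher besides), 0 with an adjusted p under 0.05, and 0 to 3 with 1 library left out. At D0 it was 0 under 12 alternatives and 0 to 4 with 1 library left out. For the difference between injury effects it was 2 instead of 1 with edgeR (Igf1r besides Igfbp3), 0 with an adjusted p, and 0 to 5 with 1 library left out. The log2 fold change of Igf1 was 1.81 to 2.79 in WT and 3.20 to 3.80 in Trem2-/- with 1 library left out. No called member changed direction under these alternatives. With the replicate block the other counts were 2 in WT, 6 in Trem2-/-, 0 at D0 and 1 for the difference between injury effects, and the block's use rests only on shared numbers. Depth limits Igfbp2 alone among the members, at 5 reads in its lowest library.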

Other observations

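Igfbp2 was highest in replicate 4 of every group, at 6.32 CPM in WT D0, 6.65 in WT D7, 5.79 in Trem2-/- D0 and 4.25 in Trem2-/- D7. Its 3 closest genes over the 16 libraries were Tef (r = 0.903), Nr1d1 (0.895) and Nr1d2 (0.883), all known for daily rhythms of expression. Nr1d1 was at 139, 66.7, 75.5 and 163 CPM in WT D0 and at 122, 119, 109.9 and 172 CPM in WT D7. It was at 60.1, 49.2, 39.3 and 109 CPM in Trem2-/- D0 and at 172, 124, 147 and 118 CPM in Trem2-/- D7. Replicate 4 was thus the highest mouse in the WT groups and in Trem2-/- D0 and the lowest in Trem2-/- D7. The hour of collection is not given in the sources used here, and the part of daily rhythm in these values was not tested.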
